A study of Mus musculus with 42 samples.

Results

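The adipocytes that grew from sorted VmSC5 stromal cells were compared with those that grew from sorted VmSC4 stromal cells, both at day 8 of adipogenic culture. The comparison rests on the 6 libraries of the study that carry this label, 3 of VmSC5 and 3 of VmSC4, out of 42 libraries in all, and it covers every expressed gene. VmSC4 and VmSC5 are the study's names for stromal cell populations of mouse visceral adipose tissue (VAT), and the labels do not give the gates by which they were sorted. All 12 libraries used for tests came from VAT of the genotype labelled Pparg-Tdt: cultured VmSC5 and cultured VmSC4 after adipogenic differentiation (n = 3 each), and fresh VmSC5 and fresh VmSC4 with no treatment (n = 3 each). Mouse age and sex are not given by the labels. The study asked whether VmSC4 and VmSC5 cells turn into one another, and which signals from regulatory T cells act on their adipogenesis.

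White adipocytes form when stromal progenitors leave a fibroblast-like state and switch on PPARγ and C/EBPα. Those factors then drive genes for fatty acid synthesis, triglyceride assembly, the lipid droplet coat and adipokines such as adiponectin and leptin. Adipose stroma holds a range of progenitors, from DPP4+ interstitial cells to committed ICAM1+ preadipocytes and F3+ cells that restrain adipogenesis, and matrix, WNT and retinoid genes differ among them.

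Each culture library was made from 5 µl of the 20 µl of TCL lysis buffer applied to a well of a 96-well plate, so every cell left in the well contributed and the input was not counted. Each fresh library was made from 1000 cells sorted in 2 rounds. Polyadenylated RNA was measured as gene counts, given here as CPM, the counts of a gene per 1000000 counts in its library. The cultured VmSC5 libraries held 1871258 to 2326279 counts, against 1841664 to 2606360 counts in cultured VmSC4. They held 15187 to 15639 detected genes, against 14915 to 15688 in cultured VmSC4. The mitochondrial share was 6.31 to 7.26% of counts in cultured VmSC5 and 6.05 to 6.81% in cultured VmSC4. Fresh libraries were deeper, at 8527769 to 9709350 counts in VmSC5 and 11186713 to 12514783 counts in VmSC4. Depth and preparation thus differ between fresh and cultured cells, and their part in any contrast between the states was not tested. The labels do not say whether the replicates came from separate mice or cultures, so each p-value reflects only the spread among these libraries, part or all of which may be technical.

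The labels call the cultured cells stromal cells, and adipocyte transcripts were high in all 6 libraries. Each of 15 adipocyte markers was higher in every cultured library than in every fresh library. The share of all genes with that order was not computed. Adipoq had 4921 CPM in the lowest cultured library and 2.31 CPM in the highest fresh one, and Cebpa had 52.4 and 21.5 CPM. The summed level of the 15 markers was 51129 to 52727 CPM in cultured VmSC5 and 51630 to 54753 CPM in cultured VmSC4. Markers of macrophages and lymphocytes were low, those of endothelium were higher, and none was called in the 4-group fit. The 15 macrophage markers summed to 12.04 to 23.5 CPM in cultured VmSC5 and 11.6 to 22.8 CPM in cultured VmSC4, and 6 of them were at 0 in all 6 libraries. Of 13 lymphocyte markers 10 were at 0, and the T cell receptor constant segment Trac had 9.46, 12.9 and 9.08 CPM in cultured VmSC5, against 2.71, 1.53 and 2.79 CPM in cultured VmSC4. Trac was not called in the 4-group fit (edgeR adjusted p = 0.134), and was called higher in VmSC5 by edgeR with the 2 cultured groups alone (adjusted p = 0.000965) and by DESeq2 (adjusted p = 0.0146). The 14 endothelial markers summed to 80.8 to 93.5 CPM in cultured VmSC5 and 89.4 to 96.1 CPM in cultured VmSC4, and 5 of them were at 0, among them Cdh5 and Vwf. Stromal transcripts remained. The 12 fibroblast markers summed to 3183 to 3521 CPM in cultured VmSC5 and 2741 to 3230 CPM in cultured VmSC4. The 14 pericyte and smooth muscle markers summed to 558 to 767 CPM and 658 to 894 CPM, in the same order. The 24 proliferation genes summed to 108 to 119 CPM and 148 to 184 CPM (median log2 fold change -0.63). These lists held no call in the 4-group fit. In bulk wells, fewer cells of a type and less RNA per cell cannot be told apart.

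Of 13221 genes tested, 45 differed between the cultures (0.340%), 17 higher in VmSC5 (0.129%) and 28 lower (0.212%). A gene was called at an adjusted p under 0.05 in edgeR's quasi-likelihood test of the 4 groups, fitted together. Of the 45 genes, 27 differed more than 2-fold, 9 higher and 18 lower in VmSC5. The 3 VmSC5 libraries did not overlap the 3 VmSC4 libraries in CPM for any of the 45, and the same held for 15.5% of all genes tested (7.98% above and 7.52% below). At an unadjusted p under 0.05 the test gave 1040 genes (7.87%). When the 2 cultured groups were fitted alone, so that the spread came from cultures only, 215 of 9286 genes were called (2.32%), 98 higher in VmSC5 (1.06%) and 117 lower (1.26%). That fit called 40 of the 45 genes, did not test Gabra3 and Ccbe1, and did not call Bsg, Impa2 and Depp1. Leaving out single libraries from the 4-group fit left 17 to 99 calls, with the fewest without VmSC4 replicate 2 and the most without VmSC5 replicate 2. The median log2 fold change of all genes was -0.02, and the 95% interval lay within 2-fold for 7248 genes (54.8%).

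**Figure D1:**
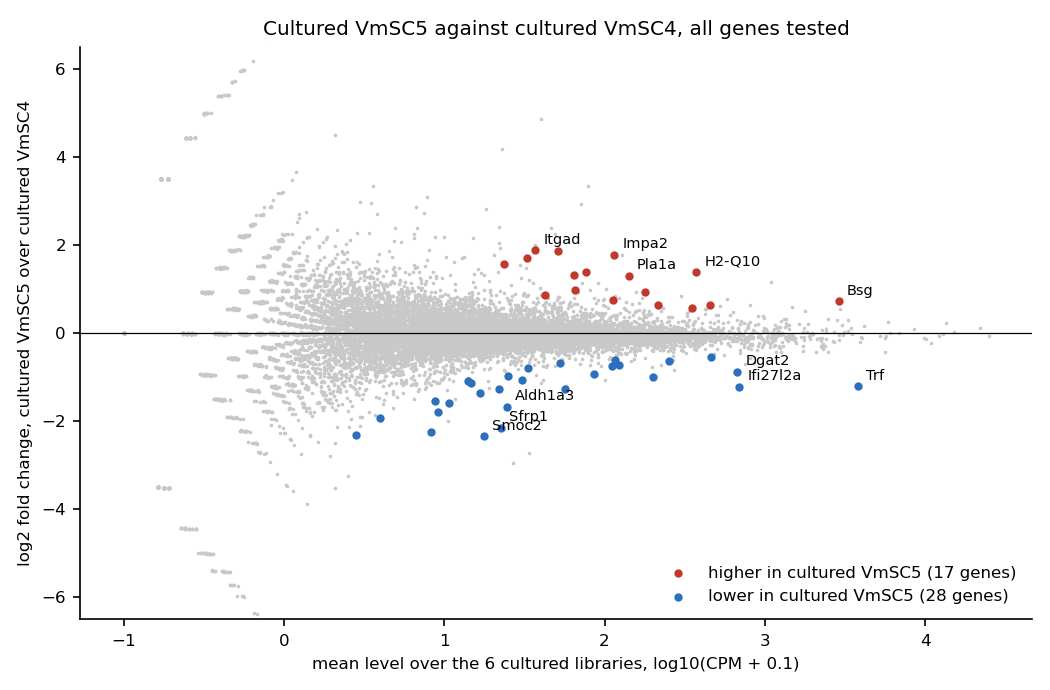
Each point is 1 of the 13221 genes tested. The horizontal axis is the mean level over the 6 cultured libraries, as log10 of CPM plus 0.1, and the vertical axis is the log2 fold change of cultured VmSC5 over cultured VmSC4, drawn to ±6.5, which leaves 3 genes outside. The 17 genes called higher are red and the 28 called lower are blue; most genes of high abundance lie near 0, and Bsg and Trf are the called genes with the highest levels on each side.

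The master regulators of adipogenesis and the main adipokines were not called between the cultures in the 4-group fit. Pparg, the nuclear receptor that drives adipogenesis, had 141, 130 and 135 CPM in cultured VmSC5, against 122, 120 and 122 CPM in cultured VmSC4 (log2 fold change 0.13 ± 0.18 SE, edgeR adjusted p = 0.930, 95% interval -0.25 to 0.50). Its partner Cebpa averaged 63.5 ± 9.92 CPM in cultured VmSC5 and 61.8 ± 5.62 CPM in cultured VmSC4 (SD, n = 3 each). The Pparg interval excludes a 2-fold difference in either direction.

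Adipoq, which encodes adiponectin, averaged 5131 ± 210 CPM in cultured VmSC5 and 5263 ± 378 CPM in cultured VmSC4 (SD, n = 3 each; log2 fold change -0.07, 95% interval -0.73 to 0.59). Fabp4, the fatty acid carrier of adipocytes, had 13713, 12437 and 13169 CPM in cultured VmSC5, against 13451, 12950 and 12336 CPM in cultured VmSC4. Both ranges overlapped. Perilipin Plin1 was more variable, with 619, 864 and 757 CPM in cultured VmSC5 and 319, 477 and 768 CPM in cultured VmSC4 (log2 fold change 0.49, 95% interval -0.57 to 1.55). Lep, which encodes leptin, was low, at 2.58, 4.30 and 3.74 CPM in cultured VmSC5, against 4.34, 7.29 and 6.99 CPM in cultured VmSC4.

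None of 19 adipogenic transcription factors was called in the 4-group fit, with a median log2 fold change of 0.09 against -0.02 for all genes. None of the 16 tested with the 2 cultured groups alone was called either. Egr2, a factor outside this list, was called higher by edgeR with the 2 cultured groups alone (adjusted p = 0.000294), and its levels are given further below. None of 13 adipokines was called in the 4-group fit, with a median of 0.12. The nearest was Retn, which encodes resistin, with 666, 545 and 522 CPM in cultured VmSC5, against 939, 1052 and 783 CPM in cultured VmSC4. The groups did not overlap (log2 fold change -0.71 ± 0.16 SE, edgeR adjusted p = 0.05001), and Retn was called lower by the fit of the 2 cultured groups alone (adjusted p = 0.0112). Retinol-binding protein 4, Rbp4, had 2117, 1521 and 1727 CPM in cultured VmSC5, against 1370.0, 931 and 1175 CPM in cultured VmSC4, and chemerin, Rarres2, had 868, 640 and 718 CPM against 499.5, 286 and 486 CPM. Neither passed in either fit. Other settings called genes of the adipokine list higher in VmSC5: 1 in DESeq2, 2 with no low-count filter, 2 with either replicate block on the 4 groups, and 3 with the block and the 2 cultured groups alone. Each of these settings also called 1 lower. Insulin signalling and glucose transport held no call among 15 genes, and all 15 intervals lay within 2-fold. The same was true of 30 nuclear oxidative phosphorylation genes (median -0.04).

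Dgat2 was lower in VmSC5. Dgat2, one of a pair of acyltransferases that join the final fatty acid to diacylglycerol, had 442, 516 and 491 CPM in cultured VmSC5, against 798, 883 and 923 CPM in cultured VmSC4. Every VmSC5 library lay well below every VmSC4 library, and Dgat2 was 1.84-fold lower (log2 fold change -0.88 ± 0.12 SE, edgeR adjusted p = 0.000137). Per kilobase of exon, Dgat2 stood at 157 ± 12.2 CPM in cultured VmSC5 and 282 ± 20.6 CPM in cultured VmSC4, while Dgat1, the other enzyme of that step, stood at 109 ± 5.23 and 114 ± 8.11 CPM (SD, n = 3 each). Dgat1 was thus the lower of the pair per length in both cultures, and by a smaller margin in VmSC5.

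Dgat2 was the only call among 13 triglyceride synthesis genes in the 4-group fit, where the list's median log2 fold change was -0.27. The fit of the 2 cultured groups alone called 4 lower and none higher. The added genes were the glycerol-phosphate acyltransferases Gpat3 and Gpam and the glycerol-phosphate dehydrogenase Gpd1. Gpat3 had 172, 229 and 191 CPM in cultured VmSC5, against 274, 412 and 349 CPM in cultured VmSC4. The highest VmSC5 library lay below the lowest VmSC4 library.

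None of 18 fatty acid synthesis genes was called in the 4-group fit, and all 18 intervals lay within 2-fold. The fit of the 2 cultured groups alone called Thrsp, Me1, Pcx and Fasn lower and Scd2 higher. Thrsp, a lipogenic regulator that responds to thyroid hormone, had 690, 680 and 631 CPM in cultured VmSC5, against 952, 999.9 and 928 CPM in cultured VmSC4 (log2 fold change -0.56 ± 0.14 SE). Fasn, fatty acid synthase itself, had a log2 fold change of -0.36 (95% interval -0.60 to -0.12).

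Among 13 genes of fatty acid uptake and activation, Acsl3 was the only call in the 4-group fit. The fit of the 2 cultured groups alone called 1 gene of this list higher and 3 lower. Acsl3 makes acyl-CoA on the endoplasmic reticulum and on nascent lipid droplets. It had 28.8, 40.0 and 37.9 CPM in cultured VmSC5, against 8.69, 11.1 and 15.4 CPM in cultured VmSC4. The groups were far apart (2.95-fold higher, log2 fold change 1.56 ± 0.29 SE, edgeR adjusted p = 0.00783), although the call was lost without VmSC5 replicate 3, VmSC4 replicate 1 or VmSC4 replicate 2 (adjusted p up to 0.0977). Per kilobase, Acsl3 was a minor form: 8.17 ± 1.37 CPM in cultured VmSC5 and 2.69 ± 0.776 CPM in cultured VmSC4, where the main adipocyte form Acsl1 had 173 ± 14.2 and 227 ± 24.97 CPM (SD, n = 3 each). Acsl1 was called lower in VmSC5 by edgeR with the 2 cultured groups alone (adjusted p = 0.00777).

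**Figure D2:**
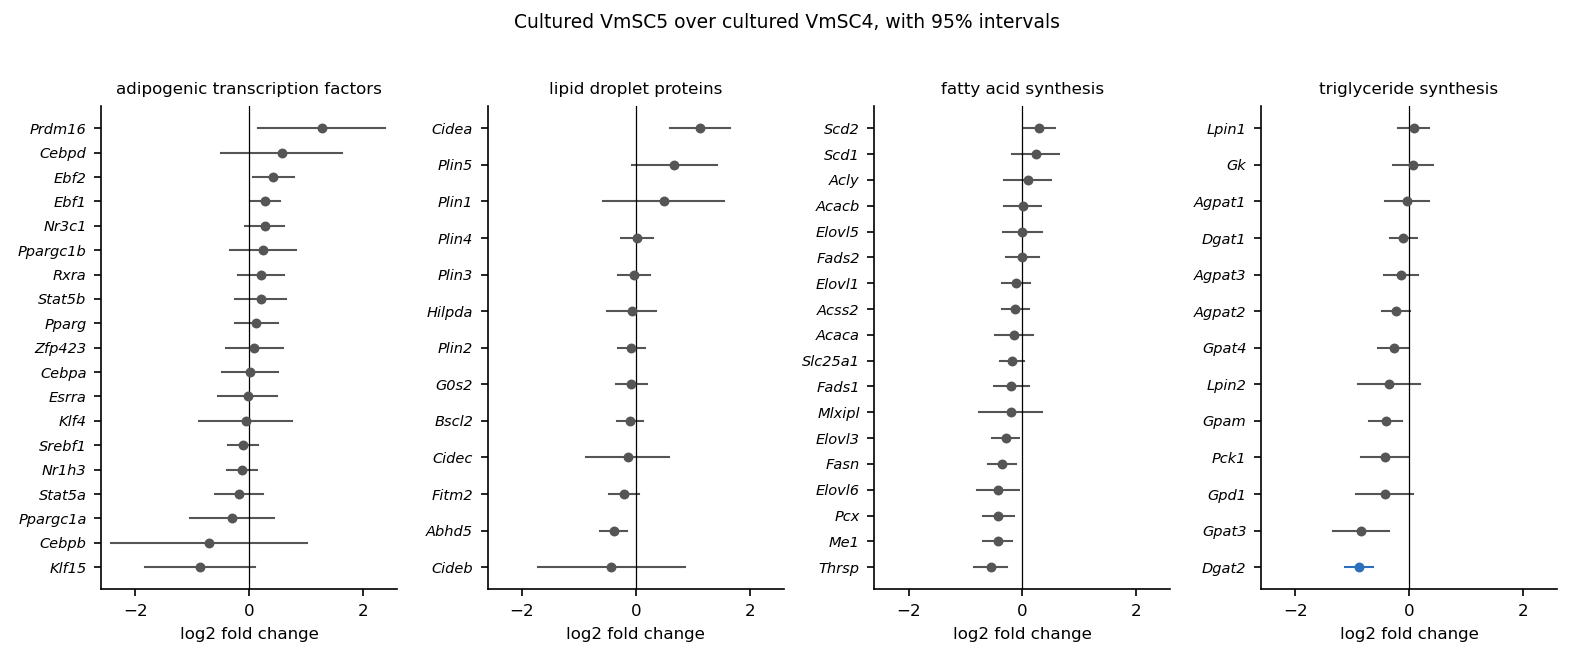
Log2 fold change of cultured VmSC5 over cultured VmSC4 (points) with 95% intervals (lines) for every tested gene of 4 lists, adipogenic transcription factors (19), lipid droplet proteins (13), fatty acid synthesis (18) and triglyceride synthesis (13). Dgat2, drawn in blue at -0.88, is the only gene of the 4 lists called in the 4-group fit, which is the fit drawn. The fit of the 2 cultured groups alone called others, among them 1 lipid droplet gene higher and 1 lower.

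Both enzymes that begin the breakdown of branched-chain amino acids differed, in opposite directions. Bcat1, the cytosolic transaminase, had 90.7, 88.7 and 96.7 CPM in cultured VmSC5, against 42.9, 29.9 and 36.3 CPM in cultured VmSC4. The lowest VmSC5 library had more than 2-fold the highest VmSC4 level, and Bcat1 was 2.49-fold higher (log2 fold change 1.32 ± 0.19 SE, edgeR adjusted p = 0.000403). Bcat2, the mitochondrial transaminase, had 395, 394 and 349 CPM in cultured VmSC5, against 489, 604 and 537 CPM in cultured VmSC4 (1.46-fold lower, adjusted p = 0.0434 in edgeR). The Bcat2 call was lost in 6 of 13 alternative settings, among them without any 1 of the VmSC5 libraries (adjusted p up to 0.518). Per kilobase, Bcat2 remained the main form in both, at 97.3 ± 6.66 CPM in cultured VmSC5 and 139 ± 14.8 CPM in cultured VmSC4, against Bcat1 levels of 9.87 ± 0.450 and 3.90 ± 0.696 CPM. The other 16 of 18 genes in this pathway were not called by either fit.

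A pair of secreted lysophospholipid enzymes was higher in VmSC5. Pla1a (chromosome 16, 38396117 to 38433145, minus strand, mm10), which cleaves phosphatidylserine to lysophosphatidylserine, had 205, 198 and 204 CPM in cultured VmSC5, against 81.4, 86.7 and 71.7 CPM in cultured VmSC4. Its libraries agreed closely within each group and lay far apart between them. Pla1a was 2.47-fold higher (log2 fold change 1.30 ± 0.13 SE, edgeR adjusted p = 9.21e-07), and with Trf it had the smallest adjusted p of the comparison. Enpp2, the autotaxin that makes lysophosphatidic acid, had 542, 556 and 577 CPM in cultured VmSC5, against 324, 340 and 383 CPM in cultured VmSC4 (1.56-fold higher, adjusted p = 0.00564 in edgeR). The Enpp2 groups did not overlap, and the call was lost without VmSC5 replicate 3, VmSC4 replicate 1 or VmSC4 replicate 2.

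Lipa, the lysosomal acid lipase, was 1.55-fold higher, with 255, 262 and 277 CPM in cultured VmSC5 and 157, 156 and 188 CPM in cultured VmSC4 (edgeR adjusted p = 0.0195, lost without either of VmSC5 replicates 1 and 3 or either of VmSC4 replicates 1 and 2). Gpx3, a secreted glutathione peroxidase of plasma, was 1.48-fold higher, at 423 ± 18.9 CPM in cultured VmSC5 and 280 ± 26.5 CPM in cultured VmSC4 (SD, n = 3 each), and its call was lost without any 1 of the 6 cultured libraries.

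Bsg and Emb, the chaperones that carry monocarboxylate transporters to the cell surface, were both higher in VmSC5. Bsg, basigin, had 4152, 3216 and 3551 CPM in cultured VmSC5, against 2487, 1650 and 2309 CPM in cultured VmSC4, and was 1.66-fold higher (log2 fold change 0.73 ± 0.13 SE, edgeR adjusted p = 0.00553). Bsg was not called by the edgeR fit of the 2 cultured groups alone (adjusted p = 0.194), nor without VmSC5 replicate 1 or VmSC4 replicate 2. Emb, embigin, had 50.3, 53.8 and 47.0 CPM in cultured VmSC5, against 19.5, 13.0 and 13.0 CPM in cultured VmSC4 (3.28-fold higher, adjusted p = 0.0395 in edgeR). The Emb groups were well separated, yet the call was lost without any 1 of the 6 cultured libraries (adjusted p up to 0.415), while the fit of the 2 cultured groups alone gave an adjusted p of 2.74e-07. Of 22 glycolysis and hypoxia genes none was called in the 4-group fit, with a median of 0.14. The fit of the 2 cultured groups alone called 3 higher, among them the phosphofructokinase Pfkp (385, 335 and 391 CPM in cultured VmSC5, against 304, 239 and 294 CPM in cultured VmSC4) and the lactate exporter Slc16a3.

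**Figure D3:**
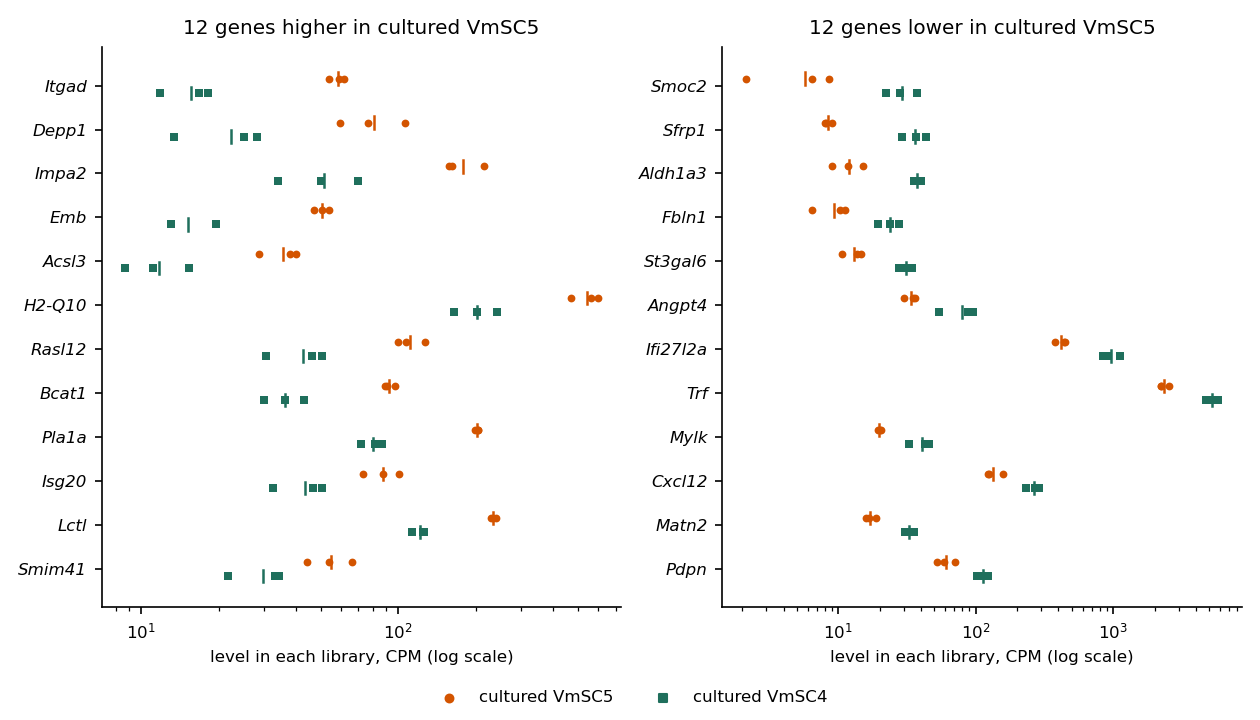
CPM in each library, on a log axis, of the 12 higher (left) and 12 lower (right) called genes with the largest fold change among those that reached 20 CPM in a group. Orange circles are cultured VmSC5, green squares are cultured VmSC4 and short bars are group means; the groups do not overlap for any of the 24 genes.

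Thermogenic genes gave no call in either fit (14 tested, median 0.04). Ucp1, the mitochondrial uncoupler of brown and beige fat, had 411, 373 and 374 CPM in cultured VmSC5, against 271, 130 and 239 CPM in cultured VmSC4. The groups did not overlap, but VmSC4 replicate 2 stood apart within its group, and edgeR gave a log2 fold change of 0.83 ± 0.26 SE and an adjusted p of 0.389 (DESeq2 gave 0.0493). Cidea, a lipid droplet protein also used as a brown fat marker, had 144, 116 and 113 CPM in cultured VmSC5, against 65.7, 31.8 and 71.3 CPM in cultured VmSC4 (log2 fold change 1.13 ± 0.25 SE, adjusted p = 0.0688 in edgeR and 0.00415 in DESeq2).

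Impa2, an inositol monophosphatase, was called, with 216, 158 and 162 CPM in cultured VmSC5 and 49.95, 34.1 and 69.9 CPM in cultured VmSC4 (3.44-fold higher, edgeR adjusted p = 0.000119, but 0.0619 with the 2 cultured groups alone). Impa2 and Cidea lie side by side on chromosome 18, Impa2 at 67289186 to 67322472 and Cidea at 67343604 to 67367785. The annotation places the unnamed gene B430212C06Rik over parts of both, so counts without strand may be shared there. VmSC4 replicate 2 was the lowest library for Ucp1, Cidea and Impa2 alike.

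Iron transport gave the most abundant difference. Trf (chromosome 9, 103204001 to 103230444), the secreted iron carrier transferrin, had 2235, 2546 and 2224 CPM in cultured VmSC5, against 4767, 5828 and 5155 CPM in cultured VmSC4. The groups were far apart, and Trf was 2.30-fold lower (log2 fold change -1.20 ± 0.12 SE, edgeR adjusted p = 9.21e-07). The call held in all 13 alternative settings. In fresh cells Trf was lower in VmSC5 as well, at 5106 ± 363 CPM, against 16942 ± 1876 CPM in fresh VmSC4 (SD, n = 3 each), and the interaction term did not pass (edgeR adjusted p = 0.142).

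Retinoid metabolism contributed 2 lower calls among 17 genes tested. Aldh1a3, a retinaldehyde dehydrogenase that makes retinoic acid, had 9.03, 15.1 and 11.8 CPM in cultured VmSC5, against 35.3, 40.3 and 35.9 CPM in cultured VmSC4. The groups were widely separated (3.19-fold lower, log2 fold change -1.67 ± 0.19 SE, edgeR adjusted p = 1.32e-05). Aldh1a1, a related dehydrogenase, had 184, 207 and 209 CPM in cultured VmSC5, against 326, 307 and 278 CPM in cultured VmSC4 (1.55-fold lower, adjusted p = 0.0209 in edgeR, lost without any 1 of 4 of the cultured libraries).

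The fit of the 2 cultured groups alone called 5 retinoid genes lower and none higher, with Aldh1a2 and Aldh1a7 among those added. Aldh1a7, a close relative of Aldh1a1 in rodents, had 2047, 2182 and 1913 CPM in cultured VmSC5, against 2436, 2649 and 2364 CPM in cultured VmSC4. It was the most abundant of these enzymes per kilobase, at 991 ± 65.1 CPM in cultured VmSC5 and 1202 ± 71.6 CPM in cultured VmSC4, where Aldh1a1 had 40.5 ± 2.85 and 61.5 ± 4.93 CPM and Aldh1a3 had 2.59 ± 0.655 and 8.05 ± 0.592 CPM (SD, n = 3 each). The list's median in the 4-group fit was -0.03, close to that of all genes.

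Smoc2, a matricellular protein of the SPARC family, had 6.45, 8.61 and 2.14 CPM in cultured VmSC5, against 22.3, 37.6 and 27.9 CPM in cultured VmSC4. It was 5.10-fold lower (log2 fold change -2.35 ± 0.31 SE, edgeR adjusted p = 0.000611). The groups did not overlap, and the call held in all 13 alternative settings.

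Sfrp1, a secreted WNT antagonist, had 8.17, 9.04 and 8.02 CPM in cultured VmSC5, against 36.9, 43.4 and 28.9 CPM in cultured VmSC4 (4.43-fold lower, log2 fold change -2.15 ± 0.30 SE, edgeR adjusted p = 0.00104). The VmSC5 libraries were nearly equal and the VmSC4 libraries all more than 3-fold above them. Sfrp1 was the only call among 16 WNT antagonists and readouts in the 4-group fit. The related Sfrp2 ran the other way, with 24.9, 33.1 and 21.4 CPM in cultured VmSC5, against 10.3, 15.0 and 8.38 CPM in cultured VmSC4, and was called higher by the edgeR fit of the 2 cultured groups alone (adjusted p = 0.00316) but not by the 4-group fit (adjusted p = 0.792).

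Fbln1, the matrix glycoprotein fibulin-1, had 11.2, 10.3 and 6.41 CPM in cultured VmSC5, against 23.9, 27.6 and 19.6 CPM in cultured VmSC4 (2.57-fold lower, edgeR adjusted p = 0.00966). Matn2, the matrix protein matrilin-2, had 15.9, 16.8 and 18.7 CPM in cultured VmSC5, against 30.4, 32.2 and 35.4 CPM in cultured VmSC4 (1.96-fold lower, adjusted p = 0.00267 in edgeR). Both kept their groups apart, and the Fbln1 call was lost without VmSC5 replicate 3 or VmSC4 replicate 2. Cilp, a cartilage matrix protein, was also lower, at 3.01, 4.30 and 5.34 CPM in cultured VmSC5, against 11.4, 16.9 and 13.0 CPM in cultured VmSC4. The Cilp call was lost without VmSC5 replicate 1, VmSC5 replicate 3 or VmSC4 replicate 2 (edgeR adjusted p up to 0.187).

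Fbln1 was the only call among 37 other matrix genes and enzymes (median 0.03), and none of 24 collagens was called (nor any of the 19 tested with the 2 cultured groups alone). The fit of the 2 cultured groups alone called 3 matrix genes higher and 5 lower. The largest of these was Mmp3, stromelysin, with 7.31, 4.73 and 6.95 CPM in cultured VmSC5, against 45.1, 62.2 and 34.5 CPM in cultured VmSC4 (log2 fold change -2.95 ± 0.74 SE, adjusted p = 0.272 in the 4-group edgeR fit and 3.37e-08 in the other). Decorin, Dcn, ran the other way, at 525, 529 and 472 CPM in cultured VmSC5, against 344, 365 and 306 CPM in cultured VmSC4 (adjusted p = 0.0593 in the 4-group edgeR fit).

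Cxcl12, the chemokine that retains CXCR4+ leukocytes, had 122, 157 and 125 CPM in cultured VmSC5, against 269, 290 and 232 CPM in cultured VmSC4. The groups lay clear of each other (2.00-fold lower, log2 fold change -1.003 ± 0.14 SE, edgeR adjusted p = 0.000169), and Cxcl12 was the only call among 22 chemokine and inflammatory genes in the 4-group fit. Pdpn, podoplanin, had 58.5, 52.5 and 70.5 CPM in cultured VmSC5, against 124, 111 and 102 CPM in cultured VmSC4 (1.90-fold lower, adjusted p = 0.000588 in edgeR). The Pdpn groups did not overlap in any library.

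Angpt4, a ligand of the TIE2 receptor, had 30.1, 34.9 and 36.3 CPM in cultured VmSC5, against 95.02, 87.9 and 54.0 CPM in cultured VmSC4 (2.40-fold lower, edgeR adjusted p = 0.0101). Mylk, myosin light chain kinase, had 20.2, 19.4 and 20.3 CPM in cultured VmSC5, against 42.9, 46.0 and 32.6 CPM in cultured VmSC4 (2.08-fold lower, adjusted p = 0.0395 in edgeR). St3gal6, a sialyltransferase, had 14.6, 13.8 and 10.7 CPM in cultured VmSC5, against 31.0, 34.5 and 27.5 CPM in cultured VmSC4 (2.42-fold lower, adjusted p = 0.0108 in edgeR). These 3 genes were called with less security: Angpt4 and St3gal6 were lost without VmSC5 replicate 3 or VmSC4 replicate 2, Angpt4 also without VmSC5 replicate 1, and Mylk without any 1 of 5 of the libraries.

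The other 12 lower genes were the secreted C1q and TNF-related protein C1qtnf7 (3.00-fold), the lymphangiogenic matrix protein Ccbe1, the neutral sphingomyelinase Smpd3, the phosphodiesterase Gdpd2, the GABA-A receptor subunit Gabra3, the transcriptional regulator Mn1, the RNA-binding protein Rbms3, the hedgehog coreceptor Boc, the guanine deaminase Gda, the cell junction protein Heg1, the sushi-repeat protein Srpx and the purine base transporter Slc43a3. Their log2 fold changes ran between -2.32 (Gabra3) and -0.60 (Slc43a3). Gabra3 was near the limit of detection in culture, at 1.29, 0.430 and 1.07 CPM in VmSC5 and 4.34, 4.99 and 4.19 CPM in VmSC4. Of the 12, only C1qtnf7 was called in every alternative setting, and the Slc43a3, Mn1, Rbms3, Gda, Ccbe1 and Gabra3 calls were lost without any 1 of the VmSC5 libraries.

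Markers of the progenitor states were mostly not called. None of 19 DPP4+ progenitor genes (median 0.24), 20 committed preadipocyte genes (median -0.02) or 12 genes of F3+ regulatory stromal cells (median -0.56) passed in the 4-group fit. Thy1, a surface glycoprotein of stromal progenitors, had 9.46, 8.61 and 11.8 CPM in cultured VmSC5, against 5.43, 2.69 and 3.26 CPM in cultured VmSC4 (log2 fold change 1.39 ± 0.34 SE, edgeR adjusted p = 0.0773, and 0.0294 with the 2 cultured groups alone, which called it higher). Dpp4 and Pi16 were below 7 CPM in each cultured library, and Icam1 had 15.0, 17.6 and 24.05 CPM in cultured VmSC5, against 22.3, 21.5 and 22.8 CPM in cultured VmSC4.

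The fit of the 2 cultured groups alone called 2 of 12 genes of the DPP4+ list higher and none lower, Thy1 and the fibronectin gene Fn1. Fn1 had 416, 466 and 413 CPM in cultured VmSC5, against 309.5, 379 and 312 CPM in cultured VmSC4. That fit called 3 genes of the F3+ list lower and none higher, namely F3 (tissue factor), Gas6 and Igfbp3. F3 had 233, 229 and 229 CPM in cultured VmSC5, against 300.3, 335 and 271 CPM in cultured VmSC4 (log2 fold change -0.42 ± 0.16 SE). It also called Apoe and Mgp of the committed preadipocyte list lower. Apoe, a lipid carrier, had 665, 684 and 645 CPM in cultured VmSC5, against 1096, 1095 and 943 CPM in cultured VmSC4, and the matrix Gla protein Mgp had 34.8, 31.9 and 39.5 CPM against 70.6, 94.0 and 72.7 CPM.

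Immune-type genes called higher in VmSC5 by the 4-group fit were few. The fit of the 2 cultured groups alone called others higher, among them H2-Ab1, Il4ra and Il13ra1, and called others lower, among them C3, Lcn2 and Nfkbia. Itgad, the integrin alpha D chain of some leukocytes, had 61.5, 59.0 and 54.0 CPM in cultured VmSC5, against 16.8, 11.9 and 18.2 CPM in cultured VmSC4. It had the largest rise among the called genes (3.68-fold, log2 fold change 1.88 ± 0.28 SE, edgeR adjusted p = 0.000749), while macrophage markers stood at the like levels given above. The cytochrome oxidase gene Cox6a2 lies within the Itgad interval and had 7.31, 4.73 and 6.41 CPM in cultured VmSC5, against 15.2, 19.2 and 9.31 CPM in cultured VmSC4. H2-Q10, a class Ib histocompatibility gene known in mouse liver as a secreted protein, had 596, 470 and 560 CPM in cultured VmSC5, against 241, 165 and 202 CPM in cultured VmSC4 (2.63-fold higher, adjusted p = 0.00159 in edgeR). It was the only call among 21 genes of MHC class I presentation (median 0.27), and its level is uncertain because reads of near-identical H2 copies may be counted there.

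The other 6 higher genes were Rasl12, Depp1, Isg20, Lctl, Smim41 and Zpr1. Rasl12, a RAS-like small GTPase, had 127, 107 and 99.9 CPM in cultured VmSC5, against 50.5, 30.7 and 46.1 CPM in cultured VmSC4 (2.61-fold higher, edgeR adjusted p = 3.1e-05). Depp1, a FOXO target induced by progesterone and fasting, had 106, 76.2 and 59.3 CPM in cultured VmSC5, against 28.2, 13.4 and 25.1 CPM in cultured VmSC4 (3.62-fold higher, adjusted p = 0.00553 in edgeR, but 0.0597 with the 2 cultured groups alone). Rasl12 kept its call in all 13 settings, and its groups did not overlap.

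Lctl, a lactase-like protein, had 240, 229 and 234 CPM in cultured VmSC5, against 124, 113 and 126 CPM in cultured VmSC4 (1.90-fold higher). Isg20, an interferon-induced exonuclease, had 87.3, 73.2 and 101 CPM in cultured VmSC5, against 50.5, 32.6 and 46.6 CPM in cultured VmSC4 (1.98-fold higher, edgeR adjusted p = 0.00888). Smim41, a small membrane protein, had 66.2, 53.8 and 44.4 CPM in cultured VmSC5, against 33.1, 21.9 and 34.5 CPM in cultured VmSC4 (1.83-fold higher). Zpr1, a zinc finger protein, was 1.68-fold higher. The Lctl, Isg20, Smim41 and Zpr1 calls were each lost without VmSC5 replicate 1 and also without VmSC4 replicate 2.

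The interferon genes spread widely between the libraries of each culture. Interferons act through cell surface receptors, and many of the genes they induce carry the repeated GAAA core of the interferon-stimulated response element. Rsad2, Ifit3 and Ifit1, antiviral effectors of this response, differed widely between the libraries, so the 300 bases around the start of each are shown. The sequences are from RefSeq (GRCm38.p6), 250 bases before to 50 after the gene start, at chr12:26456403-26456702 (minus strand), chr19:34583279-34583578 (plus strand) and chr19:34640639-34640938 (plus strand), and capitals mark matches to GAAANNGAAA or, on the other strand, TTTCNNTTTC.
Rsad2: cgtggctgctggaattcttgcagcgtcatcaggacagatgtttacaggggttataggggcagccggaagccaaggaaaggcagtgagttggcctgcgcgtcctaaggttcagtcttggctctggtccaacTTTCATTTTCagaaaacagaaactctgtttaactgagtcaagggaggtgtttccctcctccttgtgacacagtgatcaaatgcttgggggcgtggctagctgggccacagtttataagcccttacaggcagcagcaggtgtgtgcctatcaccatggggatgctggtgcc
Ifit3: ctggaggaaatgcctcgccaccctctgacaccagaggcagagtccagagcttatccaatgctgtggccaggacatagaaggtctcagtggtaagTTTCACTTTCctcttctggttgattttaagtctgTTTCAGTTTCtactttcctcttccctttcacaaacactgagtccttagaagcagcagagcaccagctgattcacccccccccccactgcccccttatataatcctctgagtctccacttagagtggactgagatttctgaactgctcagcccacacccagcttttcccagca
Ifit1: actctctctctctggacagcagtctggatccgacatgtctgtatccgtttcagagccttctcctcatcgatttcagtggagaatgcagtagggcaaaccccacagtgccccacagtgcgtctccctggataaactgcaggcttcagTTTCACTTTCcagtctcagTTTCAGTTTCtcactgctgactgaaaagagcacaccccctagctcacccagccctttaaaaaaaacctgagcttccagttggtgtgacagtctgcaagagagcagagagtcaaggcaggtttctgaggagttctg

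Ifit1 had 264, 3.44 and 107 CPM in cultured VmSC5, against 35.3, 3.84 and 12.1 CPM in cultured VmSC4. Ifit3 had 277, 1.72 and 150 CPM in cultured VmSC5, against 32.6, 5.76 and 6.05 CPM in cultured VmSC4, and its level is uncertain because reads of its near-identical copy Ifit3b may be counted there. Rsad2 had 157, 0 and 76.4 CPM in cultured VmSC5, against 2.71, 0.384 and 5.12 CPM in cultured VmSC4. In each case VmSC5 replicates 1 and 3 were high, VmSC5 replicate 2 was low, and the groups overlapped. The motif occurred in 13 of 21 type I interferon genes with a promoter sequence (61.9%) and in 11 of 16 interferon gamma genes (68.8%). Over all 27025 genes with a promoter sequence it occurred in 1079 (3.99%). Among called genes it occurred in none of 12 higher and 2 of 16 lower genes with a promoter, namely Rbms3 and Mylk. A match describes these letters in this window and not a bound site.

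Of 28 listed type I interferon genes tested (21 with the 2 cultured groups alone), none was called higher and Ifi27l2a was called lower, by either fit. Other settings called more of them higher: 7 of 31 with no low-count filter, 9 of 28 with the replicate number as a block within fresh and within cultured libraries, and 9 of 21 with the block and the 2 cultured groups alone. The list's median log2 fold change of 1.89 rested on VmSC5 replicates 1 and 3. Replicate 2 of VmSC5 was below replicates 1 and 3 in all 28 genes and below every VmSC4 library in 17. Replicates 1 and 3 were above every VmSC4 library in 27. The shares of all genes with these orders were not computed, and VmSC5 replicate 2 was singled out by its values, so these counts only describe the list. Summed over the list without Ifi27l2a, the level was 1739, 150 and 1573 CPM in cultured VmSC5, against 406, 178 and 289 CPM in cultured VmSC4. Replicate 2 was the lowest library of each group. The interferon-induced Isg20, given above, is not on the list and was called higher by both edgeR fits (adjusted p = 0.00888 and 0.000340). Its replicate 2 was also the lowest library of each group.

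Without VmSC5 replicate 2, edgeR called 18 of 31 type I genes higher and 1 lower, where 74 of 14817 genes were higher and 25 lower in all. Under that setting it called 7 of 19 interferon gamma genes higher, and with all 6 libraries none of 17. The lone pair of VmSC5 libraries is then compared, so these counts describe 2 libraries against 3. The receptor subunits Ifnar1, Ifnar2 and Ifngr1 were at like levels throughout. Ifnar2 had 93.3, 94.3 and 90.8 CPM in cultured VmSC5, against 81.4, 89.4 and 76.4 CPM in cultured VmSC4.

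Ifi27l2a, an interferon-inducible gene of the ISG12 family, did not follow the other 27 genes. It had 438, 374 and 448 CPM in cultured VmSC5, against 900.3, 845 and 1128 CPM in cultured VmSC4. The VmSC5 libraries, replicate 2 included, were all near 1 level and all below VmSC4. It was 2.33-fold lower (log2 fold change -1.22 ± 0.13 SE, edgeR adjusted p = 5.36e-06), and the call held in all 13 settings. In fresh cells the difference ran the other way, with 86.5, 67.0 and 77.2 CPM in fresh VmSC5, against 39.2, 29.2 and 35.2 CPM in fresh VmSC4, and the interaction passed (-2.46 ± 0.19 on the log2 scale, adjusted p = 1.24e-08 in edgeR).

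**Figure D4:**
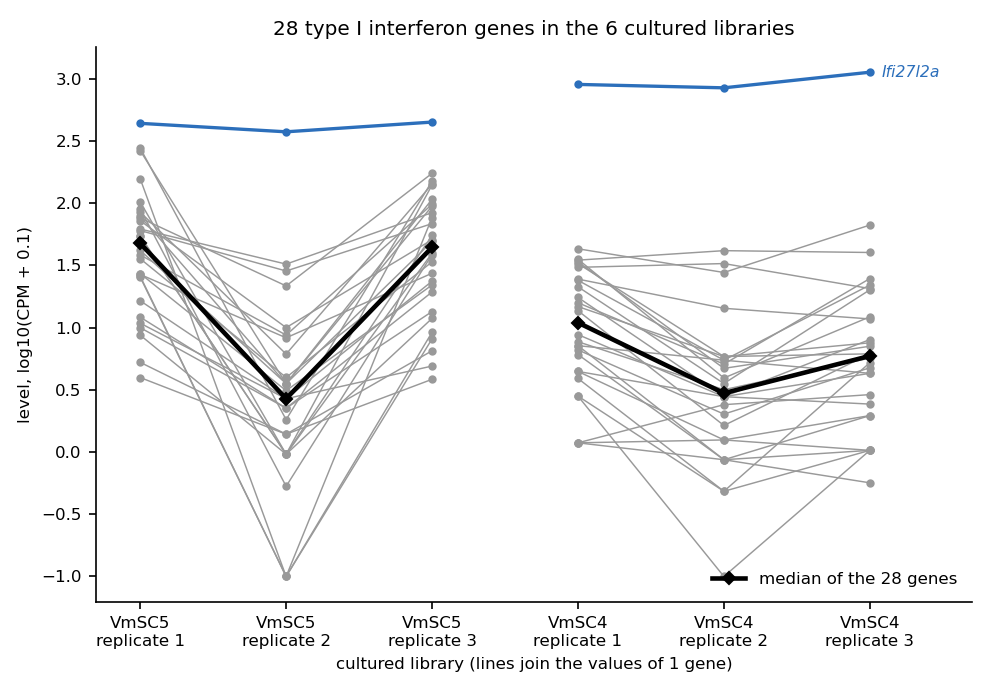
Level of each of 28 type I interferon genes in the 6 cultured libraries, as log10 of CPM plus 0.1, with the lines of each group joining the values of 1 gene and black diamonds marking the median. VmSC5 replicate 2 lies below VmSC5 replicates 1 and 3 in all 28 genes, while Ifi27l2a (blue) stays at 374 to 448 CPM in VmSC5 and 845 to 1128 CPM in VmSC4.

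More genes were called between VmSC5 and VmSC4 before culture than after it. In fresh cells 2400 of 13221 genes were called (18.2%), 917 higher in VmSC5 (6.94%) and 1483 lower (11.2%). With each state fitted alone, 1819 of 13620 genes were called in fresh cells and 215 of 9286 in the cultures. Of the 828 fresh calls past 2-fold, 7 were called in the same direction after culture, and 234 had a cultured interval within 2-fold. Of the 45 genes called in culture, 16 were called the same way in fresh cells, which is 35.6% of the cultured calls and 0.667% of the fresh calls, and 6 were called the opposite way. The cultured libraries were shallower, and its part in the lower number of calls was not tested.

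Among genes that differed the same way before and after culture were Trf, Pla1a, Bcat1, Dgat2, Aldh1a3, Aldh1a1, Sfrp1, Pdpn, Matn2 and Mylk. Pla1a had 631, 532 and 583 CPM in fresh VmSC5, against 280, 325 and 319 CPM in fresh VmSC4 (log2 fold change 1.00 ± 0.11 SE, edgeR adjusted p = 9.48e-07). Dgat2 was low in fresh cells, at 7.004, 5.42 and 7.505 CPM in fresh VmSC5, against 13.98, 13.9 and 11.5 CPM in fresh VmSC4, with a log2 fold change of -0.90 beside the -0.88 after culture. Sfrp1 had 94.9, 95.3 and 101 CPM in fresh VmSC5, against 140, 288 and 203 CPM in fresh VmSC4.

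Other genes that differed in fresh cells were not called in the cultures by the 4-group fit, although the fit of the 2 cultured groups alone called Thy1 higher and Aldh1a7 lower. Thy1 had 48.1, 49.1 and 57.1 CPM in fresh VmSC5, against 1.04, 0.715 and 0.685 CPM in fresh VmSC4, a log2 fold change of 6.02 ± 0.27 SE, against 1.39 in culture (interaction adjusted p = 1.47e-06 in edgeR). Aldh1a7 had 0.515, 1.06 and 0.352 CPM in fresh VmSC5, against 58.0, 36.6 and 30.3 CPM in fresh VmSC4, far below the cultured levels given above. Ackr3, a scavenging chemokine receptor of DPP4+ progenitors, had 235, 216 and 228 CPM in fresh VmSC5, against 83.2, 47.0 and 59.8 CPM in fresh VmSC4. In culture it had 4.73, 2.58 and 2.67 CPM in VmSC5, against 10.3, 6.52 and 2.33 CPM in VmSC4.

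The 6 genes with opposite calls were Smim41 and Emb, lower in fresh VmSC5 and higher in cultured VmSC5, and Smoc2, Smpd3, Ifi27l2a and Heg1, higher in fresh VmSC5 and lower in cultured VmSC5. Smoc2 was among the abundant genes of fresh cells, with 2099.9, 2410.0 and 2591 CPM in fresh VmSC5, against 1347, 1573 and 1679 CPM in fresh VmSC4 (log2 fold change 0.71 ± 0.17 SE, edgeR adjusted p = 0.00665). The interaction, which tests whether the difference between VmSC5 and VmSC4 itself differs between culture and fresh cells, was called for 379 of 13221 genes (2.87%), 245 positive (1.85%) and 134 negative (1.01%). The interaction was called for 20 of the 45 genes. These were picked by the cultured difference that is itself part of the interaction, so this count is not independent of that choice. Leaving out single libraries left 155 (without cultured VmSC4 replicate 2) to 661 (without fresh VmSC5 replicate 1) interaction calls.

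**Figure D5:**
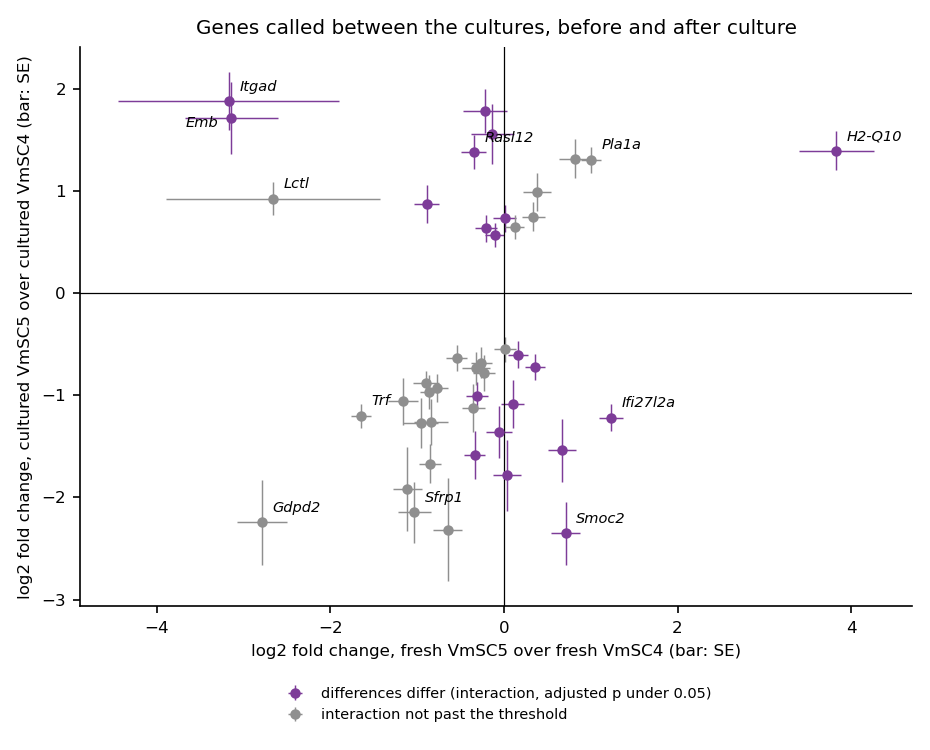
Log2 fold change of VmSC5 over VmSC4 in fresh cells (horizontal axis) and in day 8 cultures (vertical axis) for 44 of the 45 called genes, with bars of 1 SE; Depp1, at 0 in all fresh libraries, is not drawn. Purple marks an interaction at adjusted p under 0.05. Genes in the upper left (Emb) and lower right (Smoc2, Ifi27l2a) differ in opposite directions before and after culture.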

How the data were processed

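Gene counts were taken as deposited, in 1 table of 55011 genes with a column for each of the 42 samples, of which 12 were tested. The authors aligned reads to mm10 with STAR 2.7.3a and counted them per gene with featureCounts, per the submitters' processing notes. The annotation release, the strand setting and the handling of shared reads are not given in the sources used here, so genes that overlap another one or have near copies (H2-Q10, Ifit3) are uncertain. In GENCODE M21, 26 of the 44 called genes with a position overlap another gene, among them Itgad, Impa2, Acsl3, Depp1, Rasl12, Lctl, Trf, Bcat1, Bcat2, Enpp2, Emb, Smoc2, Matn2 and Aldh1a1.

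Counts of the 4 groups were fitted in edgeR 4.0.16 (R 4.3.3) by quasi-likelihood with robust dispersions, TMM scaling and its filter at a minimum count of 10, and tested two-sided with Benjamini-Hochberg adjustment over all genes. Intervals are 95%. The printed CPM are unscaled. Each SE was taken from the fold change and its F statistic. The floor is 3 counts over a group, 0.460 CPM in cultured VmSC5 and 0.455 CPM in cultured VmSC4, for counting error only. Results were recomputed with DESeq2 1.42.0, with RLE scaling, without the filter, with replicate numbers blocked, with 2 groups fitted alone and with each library left out. Leaving libraries out of the fit of 2 groups was added after seeing the data. The steps were tested on simulated counts.

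Every called gene is named. Values per library are given for the 12 largest changes in each direction that reached 20 CPM and for fixed adipocyte, progenitor and interferon genes. Members with the smallest p in each gene list were given as well, called or not, so these data picked them. The members and the 45 lists (820 genes, 7 of them absent from the table) were chosen with earlier results of these data known. Positions are from GENCODE M21, which held 52936 of the symbols and 44 of the called genes.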

Additional observations from a re-analysis of the deposited data

Results flagged for a closer look

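The difference between VmSC5 and VmSC4 itself differed between day 8 cultures and fresh cells for 24 of 60 genes. The test was edgeR's interaction test at an adjusted p under 0.05. The 60 were every called gene and a fixed set of other genes. The called genes were picked by the cultured difference that enters the interaction. The number that passed, and their signs, are therefore not independent of that choice. Each value below is the log2 fold change of VmSC5 over VmSC4 in culture minus that in fresh cells, with its SE (n = 3 libraries in each of the 4 groups).

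Among genes called higher in cultured VmSC5 the value was positive for Itgad (5.05 ± 1.35), Emb (4.85 ± 0.64), Impa2 (2.00 ± 0.33), Smim41 (1.76 ± 0.23), Rasl12 (1.73 ± 0.22), Acsl3 (1.69 ± 0.38), Lipa (0.84 ± 0.18), Bsg (0.72 ± 0.18) and Gpx3 (0.67 ± 0.16). Itgad had 0, 0 and 0 CPM in fresh VmSC5, against 0.0799, 0.447 and 0 CPM in fresh VmSC4. Emb had 0.824, 0 and 0.352 CPM in fresh VmSC5, against 2.08, 3.67 and 5.91 CPM in fresh VmSC4. Fitted values for genes this near 0 depend on the prior count and set no bound. The value of H2-Q10 was negative (-2.44 ± 0.50), since its log2 fold change was 1.39 in culture and 3.83 in fresh cells. H2-Q10 had 4.94, 3.83 and 5.75 CPM in fresh VmSC5, against 0.320, 0.715 and 0 CPM in fresh VmSC4.

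Among genes called lower in cultured VmSC5 the value was negative for Smoc2 (-3.06 ± 0.35), Ifi27l2a (-2.46 ± 0.19), Smpd3 (-2.21 ± 0.35), Cilp (-1.82 ± 0.39), Fbln1 (-1.31 ± 0.29), C1qtnf7 (-1.25 ± 0.27), Rbms3 (-1.19 ± 0.27), Heg1 (-1.08 ± 0.17), Slc43a3 (-0.76 ± 0.17) and Cxcl12 (-0.69 ± 0.19). Fbln1 was not called in fresh cells, with 1146, 1056 and 1155 CPM in fresh VmSC5, against 1381, 923 and 1389 CPM in fresh VmSC4.

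Among genes not called in culture by the 4-group fit it was 6.90 ± 0.68 for Cidea, 5.56 ± 0.38 for Aldh1a7, -2.84 ± 0.55 for Ackr3 and -4.63 ± 0.48 for Thy1. Cidea had 0, 0 and 0.235 CPM in fresh VmSC5, against 6.47, 5.18 and 4.19 CPM in fresh VmSC4, so its fitted value also depends on the prior count. In culture, DESeq2 called Cidea higher, and edgeR with the 2 cultured groups alone called Thy1 higher and Aldh1a7 lower.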

How the results depend on the processing

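The count of cultured calls moved most with the fit. It was 45 in edgeR with the 4 groups together, 47 with RLE scaling, 94 in DESeq2, 167 with no filter on low counts (94 higher in VmSC5 and 73 lower) and 215 with the 2 cultured groups alone. Leaving out 1 library gave 27, 99 and 21 calls without VmSC5 replicates 1, 2 and 3, and 37, 17 and 83 without VmSC4 replicates 1, 2 and 3. With the 2 groups alone the same leave-outs, chosen after seeing the data, gave 118, 265 and 105 without VmSC5 replicates 1, 2 and 3, and 332, 96 and 293 without VmSC4 replicates 1, 2 and 3. Same-numbered cultured libraries deviated together with correlations of 0.0459, 0.0618 and 0.0168, and differently numbered ones with correlations of -0.0570 to 0.0139. All were under the threshold of 0.1 set for pairing, so the numbers were not taken as pairs. The same-numbered values were still the highest, and whether the numbers mark a shared batch was not tested. The replicate block gave 53 cultured calls across the 4 groups, 97 within fresh and within cultured libraries, and 569 with the 2 groups alone.

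Fresh calls numbered 2400, with 1617 to 2414 when 1 library was left out. They numbered 1819 with the 2 fresh groups alone and 1563 with the block added. Interaction calls numbered 379, with 621 in DESeq2, 644 with no filter, and 155 (without cultured VmSC4 replicate 2) to 661 (without fresh VmSC5 replicate 1) when 1 library was left out. The other libraries whose loss moved that count past 1.5 times were cultured VmSC5 replicates 1 (176) and 3 (161), cultured VmSC4 replicate 1 (235) and fresh VmSC5 replicate 2 (229).

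Of the 45 called genes, 15 passed in all 13 alternatives run for single genes and 30 were lost in at least 1. Direction turned only for Cebpa and Fabp4, both near 0: Cebpa ranged from a log2 fold change of -0.0923 to 0.139 and Fabp4 from -0.0652 to 0.0110 without 1 library, and Fabp4 was 0.0189 with the 2 groups alone and 0.0187 with the block added. The causes of these shifts were not tested. At 1841664 to 2606360 counts a cultured library, genes of a few CPM could show only large differences.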

Other observations

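Further genes stood apart between the cultures without a call in the 4-group fit. Krt19, a keratin of epithelial and mesothelial cells, had 10.3, 11.2 and 10.2 CPM in cultured VmSC5, against 3.80, 1.15 and 1.86 CPM in cultured VmSC4. Egr2, an early transcription factor of adipogenesis, had 21.1, 17.6 and 20.3 CPM in cultured VmSC5, against 5.97, 7.67 and 3.73 CPM in cultured VmSC4. Both passed when the cultured groups were fitted alone in edgeR (adjusted p = 0.000885 and 0.000294). Car3, a carbonic anhydrase abundant in adipocytes, had 1675, 1491 and 1407 CPM in cultured VmSC5, against 751, 606 and 635 CPM in cultured VmSC4, with an edgeR adjusted p of 0.758 in the 4-group fit and 2.03e-09 with the cultured groups alone. Hoxa10, a positional transcription factor, had 0, 0 and 0 CPM in cultured VmSC5, against 1.63, 1.15 and 2.33 CPM in cultured VmSC4, with an edgeR adjusted p of 0.186 in the 4-group fit. These 4 genes were chosen after their values were seen.

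The study holds 6 more VmSC5 cultures of the same genotype after adipogenic differentiation, 3 kept without Treg cells and 3 given PBS, with no day in their labels. They belong to other experiments and were not tested against the day 8 cultures. Ucp1 had 0 counts in all 6. Cidea had 0, 0 and 0.215 CPM in VmSC5 without Treg cells and 0, 0 and 0 CPM in VmSC5 with PBS. Itgad had 1.74, 1.69 and 3.87 CPM in VmSC5 without Treg cells and 7.73, 6.25 and 10.2 CPM in VmSC5 with PBS, and Impa2 had 3.47, 3.37 and 2.80 CPM in VmSC5 without Treg cells and 10.8, 5.77 and 9.38 CPM in VmSC5 with PBS. H2-Q10 had 32.5, 26.4 and 30.8 CPM in VmSC5 without Treg cells and 23.2, 16.8 and 15.3 CPM in VmSC5 with PBS. These 5 genes were lower in every one of the 6 libraries than in any day 8 VmSC5 library. They are a selection, and other genes called higher at day 8 did not follow them. Enpp2 had 1896, 1913 and 1660 CPM in VmSC5 without Treg cells and 1915, 1839 and 1894 CPM with PBS. Its day 8 VmSC5 levels, given above, were lower. Bcat1 had 32.1, 32.4 and 34.4 CPM without Treg cells and 174, 205 and 224 CPM with PBS, on either side of its day 8 VmSC5 levels. Trf had 2765, 2965 and 3064 CPM in VmSC5 without Treg cells and 1021, 1119 and 1110.0 CPM in VmSC5 with PBS, and Dgat2 had 788, 753 and 755 CPM in VmSC5 without Treg cells and 334, 336 and 373 CPM in VmSC5 with PBS. Adipoq had 3574, 3595 and 3298 CPM in VmSC5 without Treg cells and 327, 243 and 244 CPM in VmSC5 with PBS. The summed level of the type I interferon genes without Ifi27l2a was 216 to 264 CPM in VmSC5 without Treg cells and 278 to 290.1 CPM in VmSC5 with PBS, where the day 8 VmSC5 libraries spanned 149.8 to 1739 CPM.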
